A study of Drosophila melanogaster with 4 samples.

Results

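The homeotic (Hox) genes of *Drosophila melanogaster* lie in a pair of complexes on chromosome arm 3R, and the regions enriched for histone H3 in these complexes are described here. The Antennapedia complex (ANT-C) was taken as 3R:2480000-2830000 and the bithorax complex (BX-C) as 3R:12480000-12820000, both in positions of FlyBase release 5. Every enriched region, here called a cluster, that overlapped either interval by at least 1 bp was counted as a member. This gave 141 members of 24339 clusters in 3 lists. The list for the whole series held 104 of its 18424 clusters in the complexes, replicate 1 held 19 of 3717, and replicate 2 held 18 of 2198.

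Wild-type embryos of the Oregon-R strain were used for ChIP-seq of H3, in which antibody-bound chromatin is sequenced, and were staged at 14 to 16 h of development. There were 2 ChIP libraries made with 1 antibody to H3, and 2 input libraries of chromatin DNA without immunoprecipitation from the same strain and stage, each of which served the ChIP replicate with its number. Whole embryos were used, so a cluster averages over all segments and tissues, which differ in the Hox genes that are active. Whether each replicate had its own collection of embryos is not labelled, so the spread between them may be technical. With 1 group of 2 ChIP libraries no permutation of libraries can test a difference, so the complexes are placed by rank among windows of the same size along 3R, as a description, with no p-value. The depth of the libraries is unknown, and neither windows nor clusters are replicates.

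Histone H3 is a core protein of the nucleosome, the particle on which DNA is wrapped. Hox genes encode homeodomain transcription factors that give the segments of the embryo their identity, and their order on the chromosome follows the order of the body regions in which they act. In flies their silence outside these regions is kept by Polycomb group proteins, which act in part through methylation of H3, and their activity by Trithorax group proteins.

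In ANT-C, *lab* (CG1264) acts in the head, *pb* (CG31481) in the adult mouthparts, *Dfd* (CG2189) in the mandibular and maxillary segments, *Scr* (CG1030) in the labial segment and the prothorax, and *Antp* (CG1028) in the thorax. In BX-C, *Ubx* (CG10388) acts in the posterior thorax and the anterior abdomen, *abd-A* (CG10325) in the abdomen, and *Abd-B* (CG11648) in its posterior segments and the genitalia. All 8 genes were matched to the RefSeq gene table for release 6, where they follow one another in this order along 3R. From *lab* to *Antp* that table lists 43 genes, 19 of them protein-coding. Among these are 7 *Ccp84A* genes and *Edg84A*, which encode cuticle proteins, *zen* and *zen2*, of which *zen* patterns the dorsal side, *bcd*, the anterior morphogen, *ftz*, a pair-rule gene, and the microRNA *mir-10*. From *Ubx* to *Abd-B* it lists 16 genes, 6 of them protein-coding, with the noncoding RNAs *bxd* and *iab8* and the microRNAs *mir-iab-4* and *mir-iab-8*. Gene positions of release 5 were not used here, so no cluster is assigned to a gene, and clusters are placed by their distance from the start of the complex.

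ANT-C was sparse in H3 clusters in the series-wide list and in replicate 1, and lay near the middle of the arm in replicate 2. The series-wide list held 47 clusters in ANT-C, against a median of 59 in 76 windows of its size (range 29 to 93), and 12 windows held fewer. These clusters covered 19.8% of ANT-C, against a window median of 28.2% (range 12.3 to 46.1), and 12 windows were covered less. In replicate 1 ANT-C had 6 clusters and a covered share of 2.74%, against window medians of 12 and 5.61%, and 5 windows were covered less. In replicate 2 it had 8 clusters and a covered share of 3.17%, against window medians of 7 and 3.17%, and 38 windows were covered less. The percentile of its covered share among windows was thus 6.58 in replicate 1 and 50.0 in replicate 2, a mean of 28.3 ± 30.7 (SD, n = 2). The replicates did not place ANT-C alike. In the series-wide list its percentile was 15.8. It was 8.62 with the edges moved outward by 50 kb, but 24.1 with the edges moved inward by 50 kb. Among the upper 50% of clusters by score it was 3.95. That cut left 11 of the 47 clusters of ANT-C, against 2006 of 4752 on 3R, so this value is not separate from the low scores given below.

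BX-C lay nearer the middle of the arm. It held 57 clusters in the series-wide list, the same as the median of the 78 windows of its size (range 26 to 88). They covered 25.6% of BX-C, against a window median of 27.9% (range 11.1 to 45.2), and 29 windows were covered less. In replicate 1 it had 13 clusters and a covered share of 5.80%, against window medians of 11 and 5.45%. In replicate 2 it had 10 clusters and a covered share of 4.13%, against window medians of 7.5 and 3.32%. Its percentile by covered share was 57.7 in replicate 1 and 70.5 in replicate 2, a mean of 64.1 ± 9.07 (SD, n = 2). Both replicates placed BX-C above the middle of the arm and the series-wide list placed it below, at the percentile 37.2. With the edges of BX-C moved inward by 50 kb, the series-wide percentile was 17.7 and the replicate mean 37.2. At these edges BX-C ranked below ANT-C (24.1) in the series-wide list and above it (30.6) in the replicate mean, so the series-wide order of the complexes depends on where their edges are set.

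**Figure D1:**
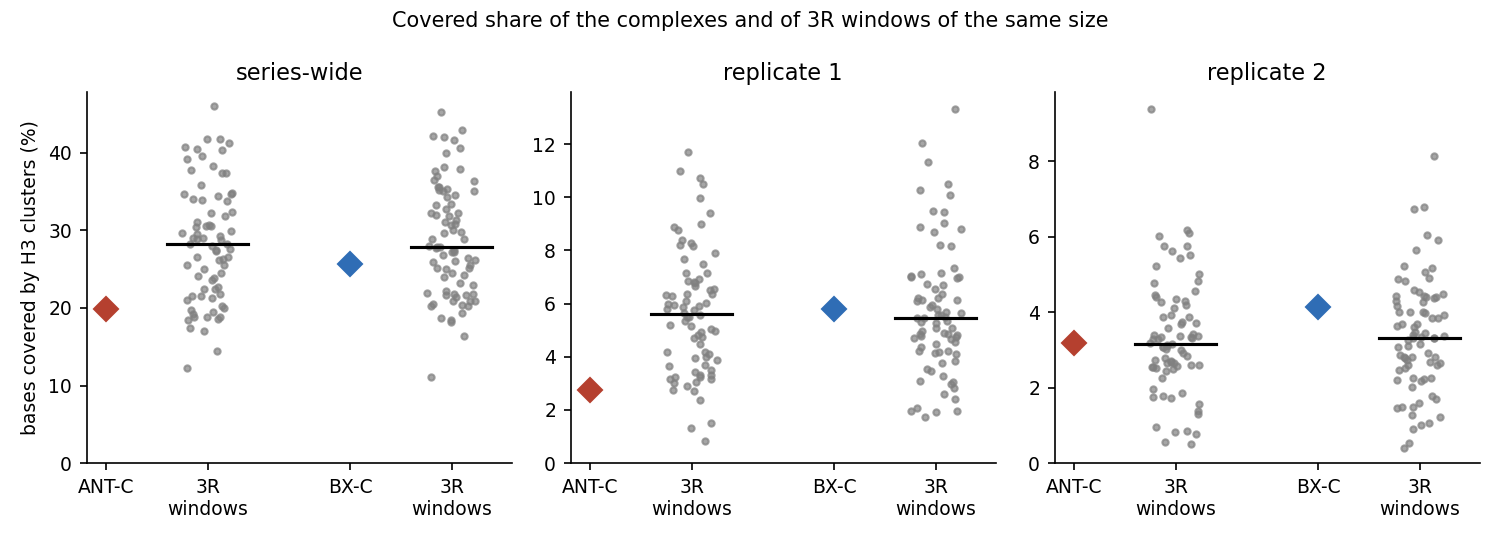
Percent of bases covered by H3 clusters in ANT-C and BX-C (diamonds) and in windows of the same size on 3R (grey points, with a line at their median), for the series-wide list, replicate 1 and replicate 2, each with its own vertical axis. ANT-C lies low in the list of the series (19.8%) and in replicate 1 (2.74%) and at the median in replicate 2 (3.17%), and BX-C lies within the bulk of the windows in all 3 lists.

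ANT-C held fewer clusters than BX-C in every list, with 47 against 57 in the pooled list of the series, 6 against 13 in replicate 1 and 8 against 10 in replicate 2. Its covered share was lower by 5.80 percentage points in the first of these lists, by 3.06 in replicate 1 and by 0.96 in replicate 2. Over the replicates the mean covered share was 2.95% ± 0.307 in ANT-C and 4.97% ± 1.18 in BX-C (SD, n = 2 each). Median cluster length had no common direction. In the series-wide list it was 1373 bp in ANT-C against 1367 bp in BX-C. Replicate 1 gave 1557.5 bp in ANT-C against 1442 bp in BX-C, and replicate 2 gave 1382 bp in ANT-C against 1462.5 bp in BX-C.

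The stretches of 3R on both sides of ANT-C were as sparse as ANT-C itself. In the series-wide list ANT-C was covered to 19.8%, against 18.8% in the window of its size before it and 17.5% in the window after it. The next windows outward were covered to 17.0% and 18.9%. ANT-C held 47 clusters, against 40 to 44 in these 4 neighbours, so the low number extended beyond the complex. In replicate 1 ANT-C had 6 clusters and its neighbours 7 or 8, and in replicate 2 ANT-C had 8 and its neighbours 3 to 6.

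BX-C lay between unlike neighbours. In the series-wide list BX-C was covered to 25.6%, against 39.9% in the window of its size before it and 21.8% in the window after it. The replicates had the same order, with 13 clusters in BX-C in replicate 1, against 18 before and 11 after, and with 10 in BX-C in replicate 2, against 15 before and 2 after. By covered share replicate 1 differed little from the window after, with 5.80% in BX-C and 5.58% there. BX-C thus lay between a denser and a sparser window in all 3 lists, though the series-wide list is not independent of the replicates.

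Within BX-C coverage was highest in a pair of stretches, one at its start and one before its last 40 kb. In the series-wide list the first 50 kb of the complex were covered to 43.0% and the stretch from 250 to 300 kb to 39.6%, against 17.0 to 19.3% in the 4 stretches of 50 kb between them. Replicate 1 had its highest shares in the same stretches, 9.00% and 9.60%, with 2.73 to 6.54% in the 4 between. Replicate 2 had 13.9% and 9.00% there, with 0 to 2.62% between. The last 40 kb, from 300 to 340 kb, were covered to 22.4% by series-wide clusters, with 3.75% in replicate 1 and 0% in replicate 2, so that end itself was not dense. By midpoint, the first 50 kb and the stretch from 250 to 300 kb held 3 clusters each in replicate 1, and 4 and 3 in replicate 2. The stretches were chosen with the values in view, so this pattern is a description. The fullest bin of 10 kb, 290 to 300 kb from the start, was covered to 67.7%.

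ANT-C showed another layout, with several long stretches free of clusters. The series-wide list covered 5.59% of the stretch from 200 to 250 kb and 11.2% of that from 300 to 350 kb, against 18.8 to 30.9% in the other 5 stretches of 50 kb. Of 35 bins of 10 kb, 8 held no covered base in ANT-C (22.9%), against 2 of 34 in BX-C (5.88%) and 292 of 2790 on all of 3R (10.5%). In replicate 1 the empty share was 85.7% in ANT-C and 55.9% in BX-C, against 66.4% on 3R. In replicate 2 it was 77.1% in ANT-C and 73.5% in BX-C, against 78.5% on 3R, so the excess in ANT-C was not found there. Replicate 1 listed nothing between 100 and 250 kb from the start, while replicate 2 listed at least 1 cluster midpoint in each of the 6 stretches of 50 kb up to 300 kb and none beyond.

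**Figure D2:**
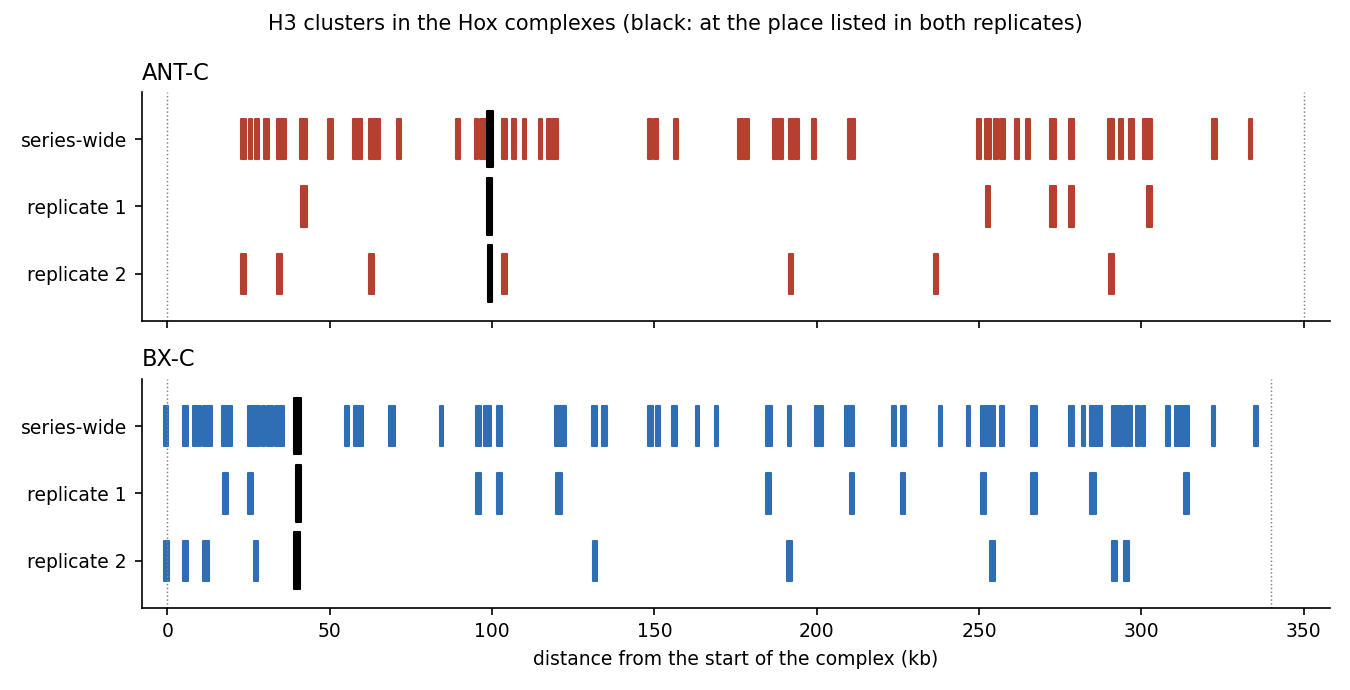
H3 clusters of the series-wide list, replicate 1 and replicate 2 in ANT-C (above) and BX-C (below), as bars at their distance in kb from the start of the complex, with dotted lines at its edges. Black bars mark the single place in each complex, near 99 kb in ANT-C and near 39 kb in BX-C, where clusters of both replicates overlapped.

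**Figure D3:**
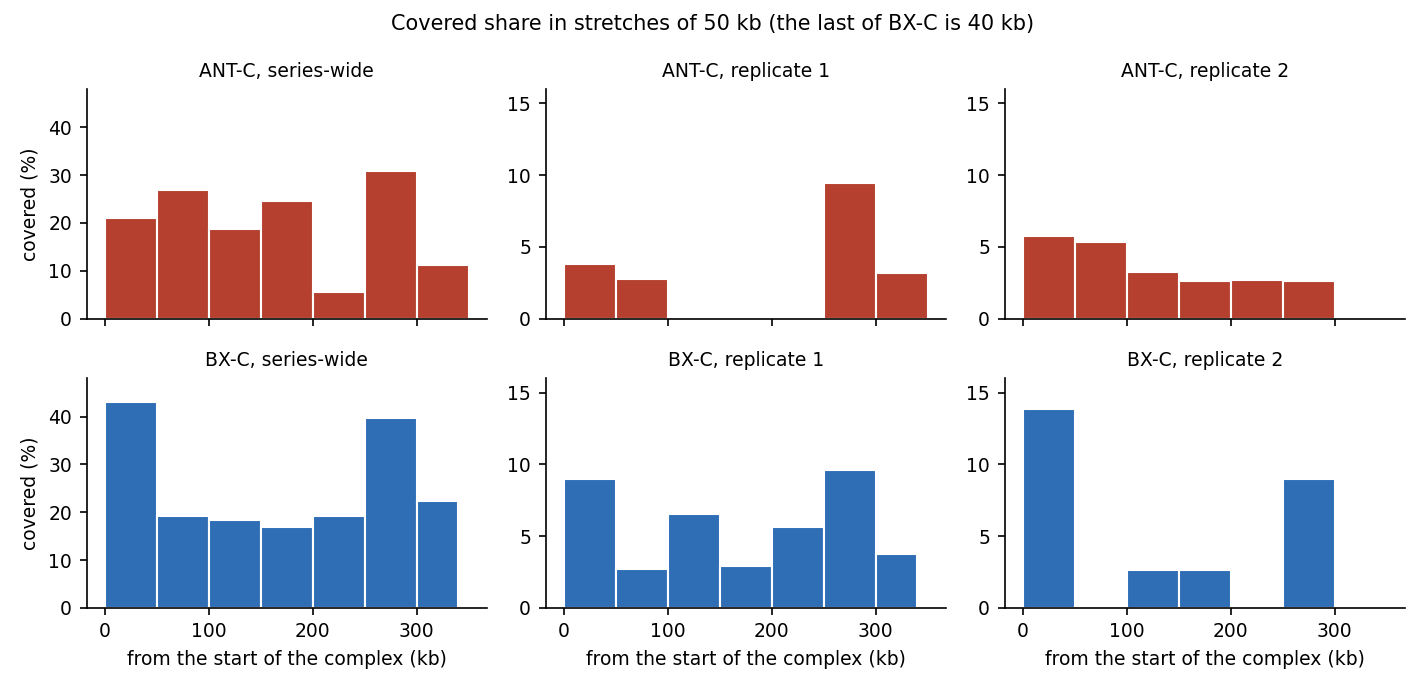
Percent of bases covered by H3 clusters in successive stretches of 50 kb from the start of ANT-C (above) and BX-C (below), for each list, with the replicate panels on a smaller scale than the series-wide ones. In BX-C the first stretch and that from 250 to 300 kb are the highest in all 3 lists, and in ANT-C the stretch from 200 to 250 kb is the lowest in the series-wide list (5.59%).

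The longest stretch without a series-wide cluster in ANT-C was 3R:2691677-2729363, of 37687 bp, 211.7 to 249.4 kb from its start. It was 1.65 times the median of the longest such stretches in 76 windows (22845 bp), and 5 windows had a longer one. On all of 3R, 11 stretches were at least as long, this one included. The 4 neighbouring windows had a longest stretch of 23675 to 33547 bp in this list. In them it was 78839 to 171551 bp in replicate 1 and 107212 to 163694 bp in replicate 2. The second longest in ANT-C was 3R:2600197-2628089, of 27893 bp. The longest in BX-C was 3R:12582899-12599511, of 16613 bp, and 64 of 78 windows had a longer one. In the replicates the longest stretch in ANT-C was 152052 bp in replicate 1 (3R:2579930-2731981), against a window median of 76000.5 bp, and 4 of 76 windows had a longer one. In replicate 2 it was 86992 bp (3R:2584503-2671494), against a window median of 107726 bp, and 59 of 76 had a longer one, so the replicates went opposite ways. In BX-C the longest stretch was 62823 bp in replicate 1 (3R:12601492-12664314), against a window median of 80838 bp, and 62 of 78 windows had a longer one. In replicate 2 it was 90158 bp (3R:12520839-12610996), against a window median of 109108 bp, and 54 of 78 had a longer one. The 152052 bp left empty by replicate 1 were overlapped by 4 clusters of replicate 2. The 90158 bp left empty by replicate 2 in BX-C were overlapped by 4 of replicate 1. These counts include 3R:2578718-2580099 of replicate 2 and 3R:12519615-12520968 of replicate 1. Both only reach in across the edge of the stretch and belong to the places that both replicates listed, described below.

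Each cluster carries 1 score from the authors, on a log2 scale. What it compares is not stated in the files. Series-wide clusters of ANT-C had low scores. Their median was 0.384, against a window median of 0.405 (range 0.375 to 0.425), and 1 of 76 windows had a lower median, a percentile of 1.32. With neighbours within 1000 bp merged the percentile was 9.21, and in the 50% of clusters with the higher scores, a cut on the same values, it was 26.3. With the edges moved outward by 50 kb it was 0. The 4 neighbouring windows had medians of 0.395 to 0.405. In the replicates the median score of ANT-C was 0.52 in replicate 1, with 13 of 76 windows lower, and 0.68 in replicate 2, with 42 lower. The low rank was therefore not found in replicate 2. Series-wide clusters of BX-C had a median of 0.41, and 64 of 78 windows had a lower one. In the replicates BX-C lay lower, with medians of 0.53 (27 of 78 windows lower) and 0.65 (26 lower).

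**Figure D4:**
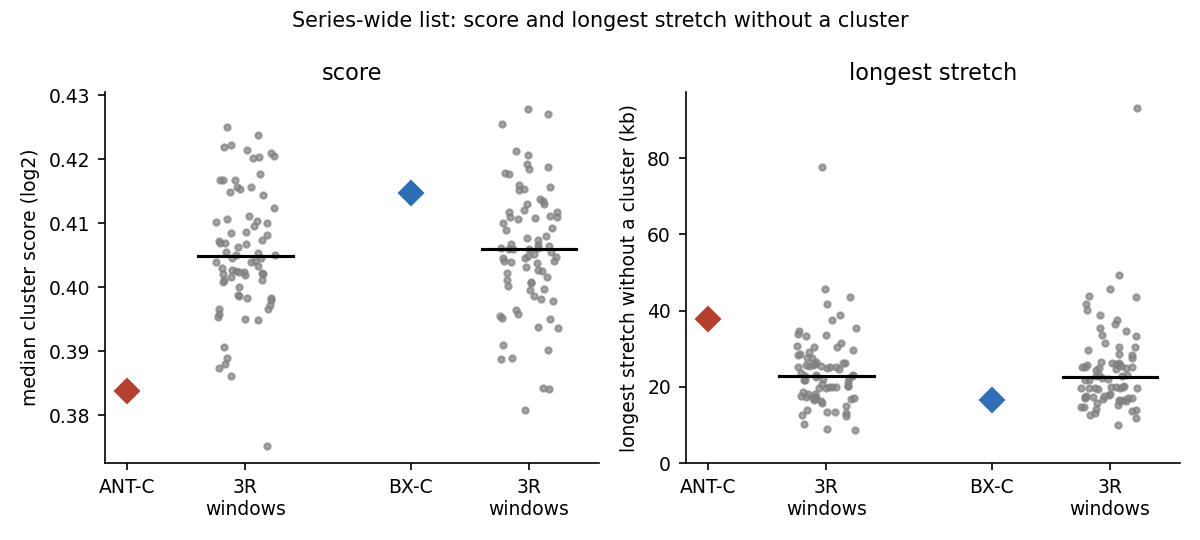
Median cluster score (left, log2 scale, axis not starting at 0) and longest stretch without a cluster in kb (right) in the series-wide list, for ANT-C and BX-C (diamonds) and for 3R windows of the same size (grey points, with a line at their median). ANT-C has a median score of 0.38 with 1 window of 76 below it and a longest stretch of 37.7 kb with 5 windows above it, while BX-C has a longest stretch of 16.6 kb with 64 of 78 windows above it.

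The overlap of the lists in the complexes was close to that on the whole arm. Of the 47 series-wide clusters of ANT-C, 6 overlapped replicate 1, against 19.9% of all series-wide clusters on 3R, and 7 overlapped replicate 2, against 12.1%. These are 12.8% (exact 95% interval 4.83 to 25.7) and 14.9% (6.20 to 28.3). Of the 57 of BX-C, 13 overlapped replicate 1 (22.8%, interval 12.7 to 35.8) and 10 overlapped replicate 2 (17.5%, interval 8.75 to 29.9). In each complex 1 series-wide cluster overlapped both replicates, against 3.01% on 3R, and 35 overlapped neither, against 71.1% on 3R. For each replicate the share on 3R lay inside the interval of either complex, and these intervals cover counting error only. The 35 clusters in neither replicate had a median length of 1271 bp in ANT-C and 1265 bp in BX-C, against 1297 bp for that class on all of 3R.

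The series-wide list pools the same ChIP libraries, so overlap with it is no independent support for a replicate cluster. Nearly all replicate clusters of the complexes overlapped a series-wide cluster, as on the whole arm. This held for 6 of 6 in ANT-C and 13 of 13 in BX-C for replicate 1, against 98.1% on 3R. For replicate 2 it held for 7 of 8 in ANT-C and 10 of 10 in BX-C, against 97.3% on 3R. The exception was 3R:2716106-2717437 of replicate 2, with a score of 0.67, which lay inside the longest series-wide stretch without a cluster in ANT-C.

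Replicate 1 and replicate 2 rarely listed the same place. In ANT-C 1 of 6 clusters of replicate 1 overlapped replicate 2, and in BX-C 1 of 13, against 13.4% of replicate 1 clusters on 3R. Seen from replicate 2, these were 1 of 8 and 1 of 10, against 22.0% on 3R. The median distance from a replicate 1 cluster to the nearest of replicate 2 was 10.6 kb in ANT-C and 9.51 kb in BX-C, against 10.7 kb on 3R. From replicate 2 to replicate 1 it was 12.4 kb in ANT-C and 5.13 kb in BX-C, against 4.97 kb on 3R.

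The shared place in ANT-C was 3R:2578535-2579929 in replicate 1 and 3R:2578718-2580099 in replicate 2, with an overlap of 1212 bp. Its scores were 0.51 in replicate 1 and 0.49 in replicate 2, and 579 of 592 replicate 2 clusters on 3R scored higher. The series-wide cluster there, 3R:2578534-2580384, measured 1851 bp with a score of 0.39. The shared place in BX-C was 3R:12519615-12520968 in replicate 1 and 3R:12518979-12520838 in replicate 2, with an overlap of 1224 bp and scores of 0.57 and 0.67. Its series-wide cluster, 3R:12518840-12521232, measured 2393 bp and scored 0.49, the third highest in BX-C, and the replicate 2 cluster, of 1860 bp, was the longest of that list in BX-C. Other pairs came close without overlap. In BX-C 3R:12504877-12506275 of replicate 1 and 3R:12506590-12507960 of replicate 2 lay 314 bp apart, and in the series-wide list they fell in separate clusters, 3R:12504904-12506300 and 3R:12506492-12508630. The replicate 2 cluster of this pair had the highest score of that list in BX-C, 0.81, and 34 of 592 on 3R were higher.

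The highest score of replicate 1 on the whole arm lay in BX-C. The cluster 3R:12581522-12582910, 101.5 kb from the start of the complex and 1389 bp long, scored 0.78, the highest of the 971 replicate 1 clusters on 3R. The series-wide cluster at that place, 3R:12581508-12582898, scored 0.59, the highest of 57 in BX-C, and 23 of 4752 on 3R scored higher. Replicate 2 listed no cluster there, and its nearest was 28086 bp away. The result thus rests on replicate 1. This series-wide cluster borders the longest stretch without a cluster in BX-C.

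Scores near the bottom of the arm occurred in both complexes. In ANT-C the replicate 1 cluster 3R:2757665-2759207 scored 0.34, and 966 of the 971 on 3R scored higher. The series-wide cluster 3R:2757624-2759146 at that place scored 0.30, with 4578 of 4752 higher. The lowest score in ANT-C was that of 3R:2673308-2674560 in the series-wide list, 0.17, with 4750 of 4752 on 3R higher and no overlap with either replicate. In BX-C the lowest were 3R:12575080-12576445 in replicate 1, at 0.37 with 959 of 971 higher, and 3R:12787512-12788764 in the series-wide list, at 0.22 with 4742 of 4752 higher. These clusters were chosen after their values were seen.

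**Figure D5:**
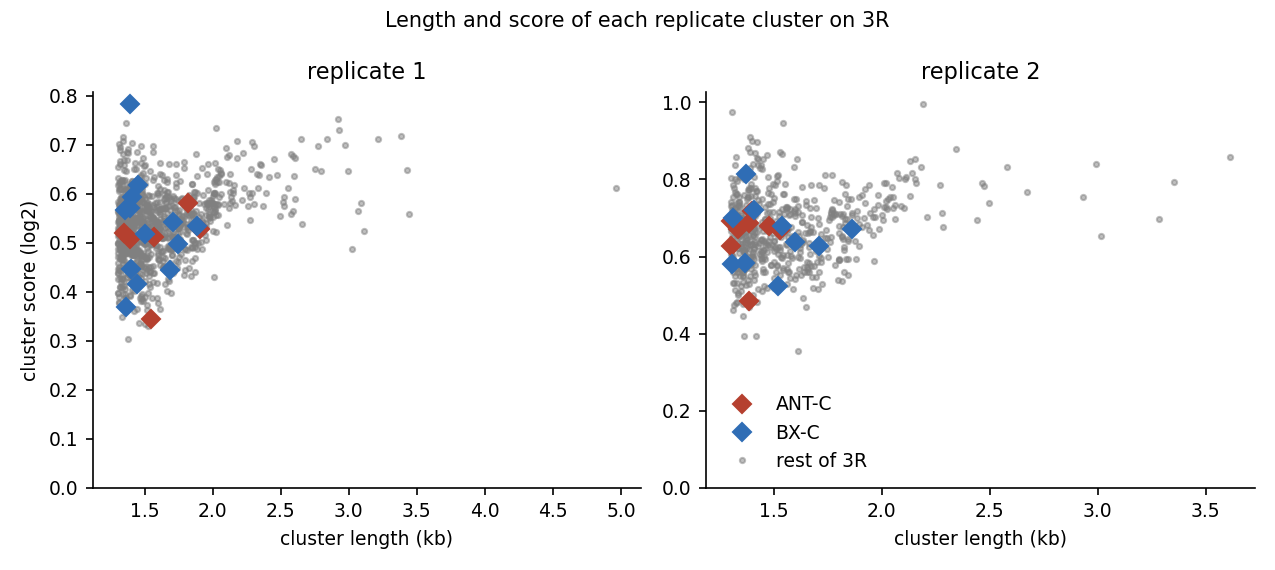
Length in kb and score (log2) of each cluster of replicate 1 (left) and replicate 2 (right) on 3R, with those of ANT-C and BX-C as diamonds and the rest of the arm as grey points. By length the members lie within the bulk of the arm's clusters, up to 1904 bp in replicate 1 and 1860 bp in replicate 2. Their scores run from 0.34 to 0.78 in replicate 1 and from 0.49 to 0.81 in replicate 2. A BX-C cluster of replicate 1 has the highest score of its panel (0.78).

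The longest series-wide clusters of ANT-C were 3R:2542194-2545478 (3285 bp, score 0.37), 3R:2780548-2783318 (2771 bp, score 0.44) and 3R:2689518-2691676 (2159 bp, score 0.48). Of these the first overlapped replicate 2, the second replicate 1 and the third neither. In BX-C they were 3R:12764038-12767764 (3727 bp, score 0.37) and 3R:12496890-12499914 (3025 bp, score 0.45), which overlapped replicate 1, and 3R:12490980-12493850 (2871 bp, score 0.46), which overlapped replicate 2. On 3R 99 of 4752 clusters were longer than the longest of BX-C and 172 were longer than the longest of ANT-C, with a maximum of 8449 bp. Over all members the series-wide median length was 1373 bp in ANT-C, with 21 of 76 windows lower, and 1367 bp in BX-C, with 19 of 78 lower. The longest replicate 1 clusters were 3R:2520976-2522879 in ANT-C (1904 bp) and 3R:12599611-12601491 in BX-C (1881 bp), and the longest of replicate 2 in ANT-C was 3R:2582975-2584502 (1528 bp). On the rest of the arm replicate 1 reached 4966 bp and replicate 2 reached 3612 bp.

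Of the 3 highest series-wide scores in each complex, all 3 in ANT-C and 1 in BX-C came from places listed in neither replicate. On all of 3R 71.1% of series-wide clusters overlapped neither replicate, so counts this small do not set these clusters apart. In ANT-C the highest were 3R:2801610-2803366 (0.49, 1757 bp), 3R:2589566-2590572 (0.48, 1007 bp) and 3R:2689518-2691676 (0.48). The cluster 3R:2589566-2590572 was also the shortest of ANT-C. In BX-C the highest, 3R:12581508-12582898, overlapped replicate 1 alone, the next, 3R:12726134-12727260 (0.49, 1127 bp), overlapped neither replicate, and the third, 3R:12518840-12521232, overlapped both. All other series-wide members scored between 0.17 and 0.45 in ANT-C and between 0.22 and 0.49 in BX-C.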

How the data were processed

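H3 ChIP-seq clusters were read from 3 deposited lists, 1 per ChIP replicate and 1 for the series. The submitters' processing notes name Bowtie 0.12.7, and positions are on FlyBase release 5 per the file headers. How clusters were called, at which threshold, and how the replicates were pooled was not given in the sources used here. The deposited score was taken as log2, since 99.1 to 100% of scores in each list differed from its most frequent score by the base 2 logarithm of a fraction with integer terms (largest denominator 1000, tolerance 1e-10 of the value). Input libraries enter only through the lists.

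Windows had the size of the complex, were laid off it without overlap, and left out both complexes. A percentile is the percent of windows with a lower value, with ties counted as 50%. Covered share was clipped at the edges, and clusters that crossed an edge were counted whole. Intervals are exact Clopper-Pearson at 95%. Window ranks were run on simulated lists with clusters placed uniformly at random and ANT-C made much sparser, left unchanged or made much denser. This checks the code and lends no support to the ranks given here. Python 3.11.15, numpy 2.4.6, pandas 2.3.3, scipy 1.17.1 and matplotlib 3.10.9 were used. Named clusters were the series-wide ones over both replicates, the 3 longest and 3 highest-scored per complex, overlapping replicate pairs, the longest of each replicate and the longest gaps. Complexes, members and lists were chosen with earlier results of these data known, and clusters named for the nearest pair, for the highest or lowest replicate score and for absence from the series-wide list were chosen after their values were seen. Sequences and gene positions of release 5 were not used here.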

Additional observations from a re-analysis of the deposited data

How the results depend on the processing

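Values are percentiles among 3R windows unless stated, and a result counted as moved when it changed by more than the SD between replicates, or left its exact interval. Of 122 alternatives to 26 results, 93 did not move, 27 moved and 2 reversed. With n = 2, leaving out either replicate shifts a replicate mean by less than that SD. Those alternatives could therefore only stay or reverse, and the 93 is no measure of robustness for them. For ANT-C that SD was 27.0 to 51.2 percentile points, so few changes could count as moved. For BX-C it was 0.907 to 18.1, so small changes could count, and the labels do not compare the stability of the complexes. In ANT-C the series-wide covered share ranged from 3.95 to 24.1 over the alternatives run. The number of its clusters ranged from 3.29 to 18.1 and their median score from 0 to 26.3. With the upper 50% of each list by score, median length in ANT-C stood at 68.4. In BX-C this cut gave 66.7 for number, 56.4 for covered share, 51.3 for length, 59.0 for score and 38.5 for the longest stretch in the series-wide list, and 49.4 and 31.4 for number and covered share over the replicates. With neighbours within 1000 bp merged, BX-C stood at 30.8 for number and 74.4 for score. Without clusters under 1301 bp, the shortest in the replicates, it stood at 79.5 for score and 30.8 for the longest stretch. With edges 50 kb outward it stood at 46.7 for covered share, 42.5 for length and 78.3 for score. With edges 50 kb inward, added after the data were seen, covered share stood at 17.7 in the series-wide list and 37.2 over the replicates in BX-C, and at 24.1 and 30.6 in ANT-C. The percent of series-wide clusters that overlapped a replicate was 25.5 in ANT-C and 38.6 in BX-C, against 28.9 on 3R. Without the short clusters it was 46.2 and 57.6, against 43.3 on 3R. In the upper 50% by score it was 21.4 in BX-C, against 21.4 on 3R. At that cut, replicate clusters that overlapped the other replicate were 0 of 1 and 0 of 2 in ANT-C, for replicates 1 and 2. In BX-C they were 0 of 5 and 0 of 3. On 3R they were 7.48 and 13.6%, and counts this small cannot be told from those shares. In the full lists they were 16.7 and 12.5% in ANT-C and 7.69 and 10.0% in BX-C. Each replicate alone gave 7.24 to 63.8 for number and 6.58 to 50.0 for covered share in ANT-C, and 62.2 to 84.6 and 57.7 to 70.5 in BX-C. It gave overlaps of 12.8 to 14.9% in ANT-C and 17.5 to 22.8% in BX-C. The difference of ANT-C and BX-C was -7 to -2 clusters and -3.06 to -0.96 percentage points. In median length it was -80.5 to 115.5 bp and in median score -0.019 to 0.020, so both turned. Shorter lists hold fewer clusters by construction, and for the rest the cause was not tested. No paired analysis was possible because the input libraries, which share replicate numbers with the ChIP libraries, have no list of their own here.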
